A study of Homo sapiens with 12 samples.

Results

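The genes described here encode respiratory complex I from the nucleus. They were taken from the count table by symbol: NDUFA, NDUFB, NDUFC, NDUFS or NDUFV followed by a digit for subunits, and NDUFAF followed by a digit for assembly factors, without pseudogenes. The rule found 46 of the 13511 genes in the table. Of these, 34 are structural subunits and 8 are assembly factors, and counts below are over these 42. The other 4 rows only carry such a name: NDUFA4, whose protein is now placed in complex IV, NDUFA4L2, its paralog, and the noncoding NDUFA6-DT and NDUFV2-AS1. NDUFV2 and NDUFA7 were not analysed here. All 46 passed the filter on low counts.

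Complex I takes electrons from NADH, passes them along iron-sulfur clusters to ubiquinone and pumps protons across the inner mitochondrial membrane. Its matrix arm holds the N module, which oxidises NADH, and the Q module, which reduces ubiquinone, and its membrane arm has a proximal and a distal part built around the 7 subunits that mitochondrial DNA encodes. Every other subunit is translated in the cytosol and imported, and assembly factors help to build the complex without being part of it. Hepatocytes depend on this chain for much of their ATP.

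Poly(A) RNA was sequenced from the human liver cancer line HepG2, which makes hepatocyte products such as albumin, wild type in every group. The 4 groups of 3 libraries were A-485 and Dox, Dox, A-485, and DMSO. Cells had 1 h of DMSO, the solvent, or of 5 µM A-485, a catalytic inhibitor of the acetyltransferases CBP and p300, and then 24 h with or without 30 µg/ml doxycycline (Dox), which inhibits mitochondrial ribosomes. The layout asks what doxycycline does to transcripts of the cell, and whether that depends on CBP and p300. No label states that a group's libraries came from separate cultures, and the spread between libraries that the p-values rest on may be technical.

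Totals were 46600324 to 51773300 gene counts per library. Dox replicate 1 stood apart: the biological coefficient of variation over all genes was 20.7% with it and 1.52% without it. Results below therefore come from a fit of the other 11 libraries, with the fit of all 12 beside them. Both used edgeR's quasi-likelihood test, and a gene is called at a Benjamini-Hochberg adjusted p under 0.05 over all 13511 genes. Levels are CPM, read counts scaled by library total and TMM factor, and differences are log2 ratios ± SE. The 7 hepatocyte markers (ALB, AFP, APOA1, APOB, TTR, SERPINA1, TF) summed to 20573 to 20859 CPM with A-485 and Dox, 51704 and 51948 CPM in Dox replicates 2 and 3, 22341 to 22590 CPM with A-485, and 63748 to 64299 CPM in DMSO, with 63746 CPM in Dox replicate 1. In bulk RNA, fewer cells of a type and less RNA per cell cannot be told apart. The leukocyte markers CD3D and CD14 summed to 1.92 to 3.78 CPM in these 11 libraries, and the endothelial markers PECAM1 and TIE1 to 11.1 to 12.5 CPM with A-485 and 5.54 to 6.05 CPM without it. The stromal marker PDGFRB had 0.600 to 1.498 CPM with A-485 and 5.16 to 5.90 CPM without it in the same 11 libraries. Dox replicate 1 had 8.20, 6.38 and 3.28 CPM of the leukocyte, endothelial and stromal markers. The 2 leukocyte markers went opposite ways with A-485 against DMSO, at -0.53 and 0.84. PTPRC, CD68, COL1A1 and COL3A1 were also looked for and had no row among the genes analysed. The part of these levels in the results was not tested.

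Promoter sequences describe the members outside the counts. RefSeq promoters (GRCh38.p14, 250 bases before to 50 after the start) matched 36 of the 42 genes. Both strands were searched for 4 motifs linked to respiratory genes: the ETS core CCGGAAG, the NRF1 motif GCGCATG, the E-box CACGTG and the NF-Y box CCAAT. The NRF1 motif, which belongs to a known activator of respiratory chain genes, was in 8 of the 36 (22.2%) and in 7.88% of the 9782 promoters in the table. The ETS core was in 6 (16.7%, against 20% of the table), the E-box in 3 (8.33%, against 10.2%) and the NF-Y box in 11 (30.6%, against 36.7%). The NRF1 motif was found in NDUFA6, NDUFA8, NDUFAF4, NDUFAF5, NDUFB4, NDUFB8, NDUFS6 and NDUFS7, and none of these motifs overlapped another kind. Among members with a promoter in the table, the NRF1 motif was in 3 of 13 that rose, 4 of 19 that fell and 1 of 4 not called with A-485 against DMSO, and in 1 of 3 that rose, 3 of 24 that fell and 4 of 9 not called with Dox against DMSO. A match is a description of the letters, not a binding site. The 250 bases before the start are printed for 4 members that responded differently: NDUFB4 and NDUFS6, lower with doxycycline and going opposite ways with A-485, and NDUFAF4 and NDUFV1, both lower with A-485. Capitals mark the NRF1 motif in NDUFB4 (a pair of overlapping matches, 1 per strand) and NDUFS6, and the ETS core in NDUFAF4, whose NRF1 match lies after the start. NDUFV1 held none of the 4.
NDUFB4 (chr3:120596086-120596335, plus strand): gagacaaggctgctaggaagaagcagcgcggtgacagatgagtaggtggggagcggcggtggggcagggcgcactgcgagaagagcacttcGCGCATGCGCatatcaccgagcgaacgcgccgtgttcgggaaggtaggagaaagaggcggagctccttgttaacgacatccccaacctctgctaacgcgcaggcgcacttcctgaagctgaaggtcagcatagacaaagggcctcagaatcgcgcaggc
NDUFS6 (chr5:1801157-1801406, plus strand): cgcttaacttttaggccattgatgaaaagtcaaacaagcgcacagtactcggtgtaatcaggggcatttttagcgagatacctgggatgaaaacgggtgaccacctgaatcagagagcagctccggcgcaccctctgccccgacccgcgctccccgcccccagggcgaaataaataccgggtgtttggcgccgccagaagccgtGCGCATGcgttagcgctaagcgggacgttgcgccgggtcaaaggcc
NDUFAF4 (chr6:96897892-96898141, minus strand): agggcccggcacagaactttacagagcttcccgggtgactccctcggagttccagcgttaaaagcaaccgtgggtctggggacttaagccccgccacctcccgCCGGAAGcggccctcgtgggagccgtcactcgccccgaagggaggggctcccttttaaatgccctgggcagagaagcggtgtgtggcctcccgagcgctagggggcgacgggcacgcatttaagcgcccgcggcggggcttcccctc
NDUFV1 (chr11:67606686-67606935, plus strand): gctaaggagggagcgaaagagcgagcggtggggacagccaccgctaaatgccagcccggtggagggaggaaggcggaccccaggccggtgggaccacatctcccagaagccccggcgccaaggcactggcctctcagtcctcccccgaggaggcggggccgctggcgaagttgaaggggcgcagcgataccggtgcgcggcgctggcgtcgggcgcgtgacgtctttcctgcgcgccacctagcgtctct

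In DMSO the members' levels per kilobase of exon ran from 0.326 to 167 CPM, with a median of 15.1 CPM. The order opened with NDUFS5, a cysteine-rich subunit of the proximal arm, at 167 ± 3.35 CPM per kilobase (SD, n = 3), then NDUFB7 of the distal arm at 120 ± 4.71 CPM. NDUFA8 followed at 63.9 ± 2.25 CPM and NDUFB10 at 61.5 ± 0.442 CPM, whose ranges of mean ± SD overlap. It closed with NDUFA9 at 0.604 ± 0.0695 CPM, NDUFS7 at 0.359 ± 0.0381 CPM and NDUFA13 at 0.326 ± 0.0324 CPM, and NDUFS7 and NDUFA13 did not differ beyond their spread. For 7 members over 30% of the coding exon length is shared with another gene: NDUFA9 (67.9%), NDUFA11 (37.8%), NDUFA13 (55.2%), NDUFB2 (45.2%), NDUFB8 (85.2%), NDUFC2 (76.9%) and NDUFS7 (48.5%). Reads in a shared stretch can be assigned to no single gene, so the counts of these 7 may be partial.

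Doxycycline alone went with lower transcripts of most complex I subunits, by small amounts. With 11 libraries, 26 of the 42 members fell and 5 rose with Dox against DMSO, where 33.3% of all genes fell and 32.8% rose. The median log2 change was -0.15, and 0.00 over all genes. Without the 7 members with shared coding exons, 23 of 35 fell and 4 rose. In 27 of the 42 members Dox replicates 2 and 3 lay below all 3 DMSO libraries and in 5 above them, against 38.2% and 37.9% of all genes. With Dox replicate 1 counted too, 2 lay below and 5 above, against 20.5% and 19.7%. Past 1.5-fold, 3 members fell (4.54% of all genes) and 1 rose (4.75% of all genes). With library totals in place of TMM scaling 20 fell and 6 rose, against 24.6% and 42.7% of all genes. Dox replicate 1 turned the direction of the median. With all 12 libraries 1 member fell, NDUFA5, and 1 rose, NDUFA13, against 7.08% and 9.01% of all genes, and the median was 0.47.

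**Figure D1:**
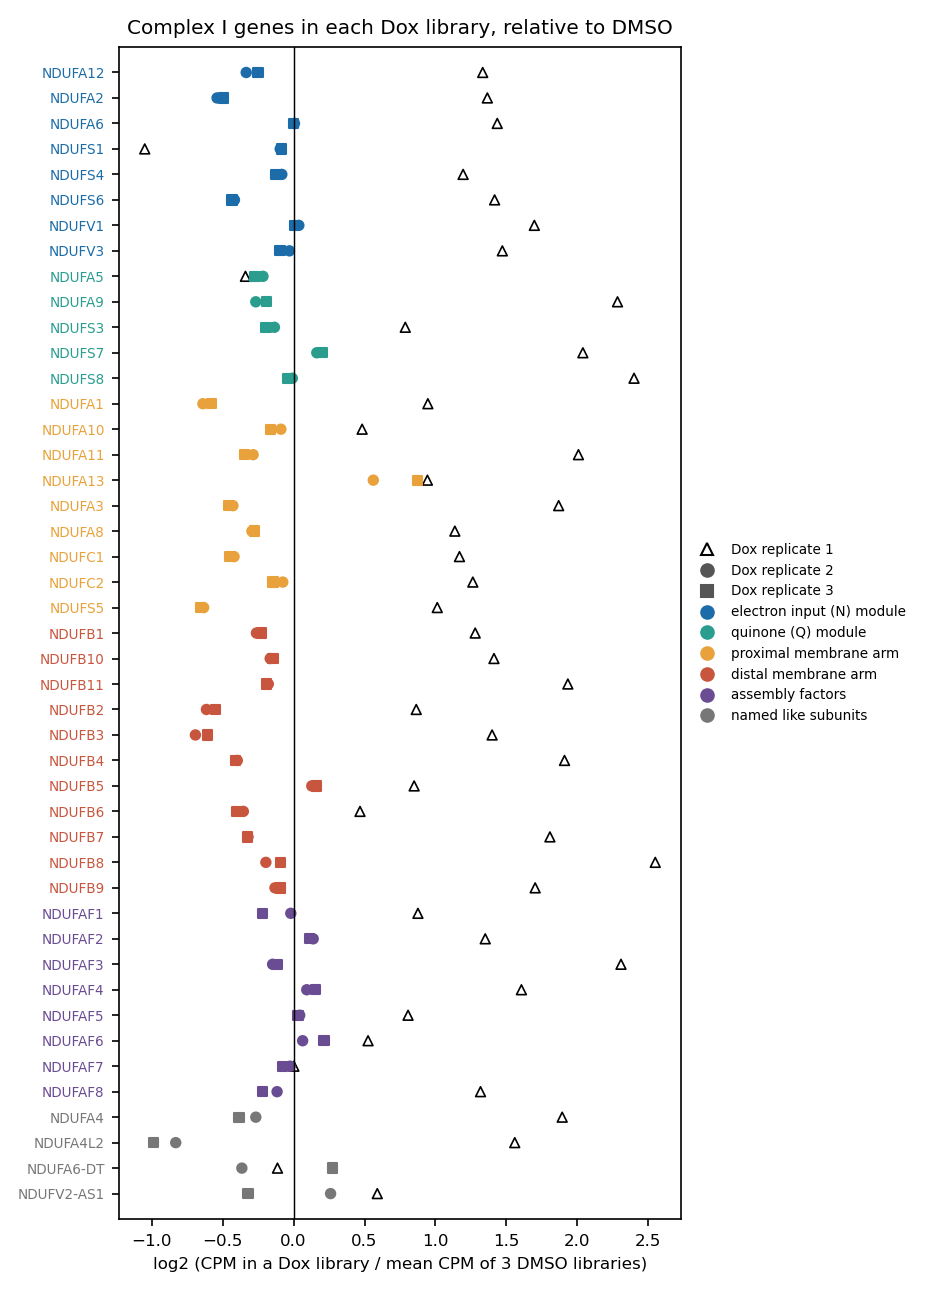
Each row is 1 of 45 of the 46 genes and the x axis is the log2 ratio of its CPM in 1 Dox library to the mean of the 3 DMSO libraries. Circles and squares (Dox replicates 2 and 3, coloured by role) lie close together and mostly left of 0, and open triangles (Dox replicate 1) lie mostly right of 0.

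Accessory subunits, which surround the catalytic core, make up 28 of the 34 structural subunits. Of the 28 accessory subunits 22 fell and 2 rose with Dox against DMSO in 11 libraries, with a median of -0.27. Of the 6 catalytic core subunits in the nuclear set 2 fell, NDUFS1 and NDUFS3, with a median of -0.03. Over all genes 33.3% fell and 32.8% rose. In edgeR with all 12 libraries 1 accessory subunit fell and 1 rose, with a median of 0.47. No core subunit was called there, with a median of 0.52. By position, 9 of 11 distal arm subunits and 7 of 9 proximal arm subunits fell, with medians of -0.25 and -0.32. In the N module 5 of 8 fell and in the Q module 3 of 6, with medians of -0.10 in both. With all 12 libraries 1 Q module subunit fell and 1 proximal arm subunit rose, and none was called in the N module or the distal arm. The difference between these groups was not tested.

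NDUFS5 (ENSG00000168653, chromosome 1, 39026318 to 39034636, plus strand, GRCh38) had 58.8 and 57.9 CPM in Dox replicates 2 and 3 and 184 CPM in Dox replicate 1, against 91.6, 89.3 and 92.9 CPM in DMSO. Replicates 2 and 3 lay below all DMSO libraries, and replicate 1 lay above them. Its change was -0.65 ± 0.03 (edgeR adjusted p = 3.25e-26), and 0.14 ± 0.37 with all 12 libraries (edgeR adjusted p = 0.81). NDUFB3 (ENSG00000119013, chromosome 2, 201071433 to 201085750, plus strand), a small membrane subunit of the distal arm, had 28.9 and 30.7 CPM in Dox replicates 2 and 3 and 123 CPM in replicate 1, against 47.3, 46.6 and 46.4 CPM in DMSO. Again replicate 1 was the only Dox library above DMSO. The change was -0.65 ± 0.04 (edgeR adjusted p = 4e-22), and 0.38 ± 0.46 with all 12 libraries (edgeR adjusted p = 0.572). NDUFA1 of the proximal arm, NDUFB2 of the distal arm and NDUFA2 of the N module fell by 0.61, 0.58 and 0.52 on the log2 scale in the 11-library fit. The other 21 that fell did so by 0.09 to 0.44.

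Several core subunits of the matrix arm changed little or were not called. NDUFV1 (ENSG00000167792, chromosome 11, 67605653 to 67612554, plus strand), which binds NADH and FMN, had 150 and 146 CPM in Dox replicates 2 and 3, against 146, 144 and 147 CPM in DMSO. Its change of 0.02 ± 0.02 was not called (edgeR adjusted p = 0.464), and Dox replicate 1 had 473 CPM. NDUFS1, which carries iron-sulfur clusters, had 195 and 196 CPM in Dox replicates 2 and 3 and 101 CPM in replicate 1, against 207, 210 and 208 CPM in DMSO. It fell by 0.09 ± 0.02 on the log2 scale (edgeR adjusted p = 0.000112), which library totals alone put at -0.02 (edgeR adjusted p = 0.489). NDUFS8 and NDUFS7 were not called either, at -0.03 and 0.18. Among accessory subunits NDUFV3, NDUFA6, NDUFB8 and NDUFC2 were not called, at -0.06, 0.00, -0.15 and -0.11.

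Assembly factors had no common direction with Dox against DMSO. NDUFAF2, which binds a late intermediate, NDUFAF4, which acts on the early Q module, and NDUFAF6 rose by 0.13, 0.13 and 0.14, and NDUFAF3 and NDUFAF8 fell by 0.13 and 0.17 on the log2 scale. NDUFAF2 had 26.0 and 25.6 CPM in Dox replicates 2 and 3, against 24.8, 23.3 and 22.8 CPM in DMSO (change 0.13 ± 0.05, edgeR adjusted p = 0.0139), and NDUFAF6 had 14.1 and 15.7 CPM, against 13.0, 14.4 and 13.2 CPM (0.14 ± 0.06, edgeR adjusted p = 0.0274). The NDUFAF6 libraries overlapped. NDUFAF1 had 8.59 and 7.48 CPM in Dox replicates 2 and 3, against 7.99, 9.29 and 8.83 CPM in DMSO, and was not called (-0.12 ± 0.08, edgeR adjusted p = 0.194), nor were NDUFAF5 and NDUFAF7, at 0.04 and -0.05. Among subunits NDUFB5 rose, with 64.8 and 66.3 CPM in Dox replicates 2 and 3, against 59.0, 60.4 and 58.4 CPM in DMSO (0.15 ± 0.03, edgeR adjusted p = 3.49e-05). NDUFA13 also rose, by 0.72, on 62 and 77 counts in Dox replicates 2 and 3, against 41, 33 and 42 counts in DMSO. It was called in the 12-library fit as well, at 0.79 (edgeR adjusted p = 0.00617).

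Nearly all members were higher in Dox replicate 1 than in the other Dox libraries. Its deviation, log2 of its CPM over the mean of Dox replicates 2 and 3 with a pseudocount of 0.1, had a median of 1.53 over the 42 members and was positive in 39 of them, against -0.02 over all genes. It reached 2.65 in NDUFB8, and was -0.96 in NDUFS1 and -0.10 in NDUFA5. The deviation differed with exonic length: over all genes its median was 1.10 in the shortest of 10 length bins and -0.71 in the longest. Of the members 19 of 42 were under 2000 bases, against 1681 of all 13511 genes. Members of 2000 bases or more had a median deviation of 1.44, against -0.13 for all genes of that length, and members under 2000 bases had 1.60, against 1.05 for all such genes. This library also had the highest share of reads that matched more than 1 gene, 12.3% of all reads, against 9.10 to 10.0% in the other 11. The part of length and of these reads in the members' values was not tested. Without this library the median coefficient of variation of a member within a group was 2.44% with A-485 and Dox, 2.21% in Dox, 3.10% in A-485 and 3.34% in DMSO, and it was 66.9% in Dox with all 3 libraries.

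**Figure D2:**
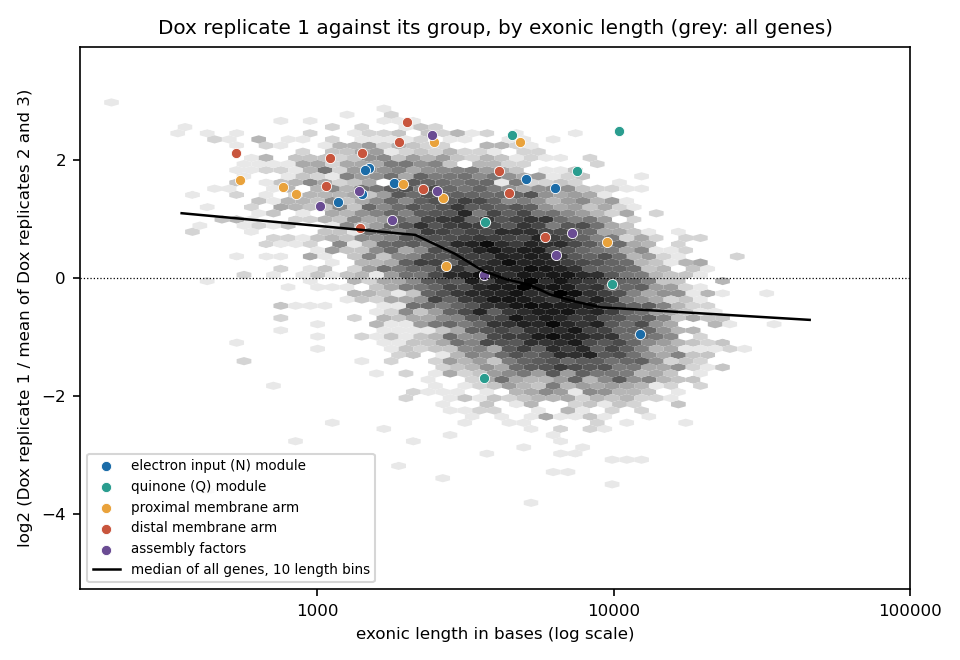
The x axis is exonic length on a log scale and the y axis the log2 ratio of Dox replicate 1 to the mean of Dox replicates 2 and 3 (grey: density of all genes, coloured points: the 42 members, line: median of all genes in 10 length bins). The line falls from 1.10 to -0.71, and 39 of the 42 members lie above 0.

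In the remaining libraries the doxycycline change itself leaned on length within the set. Members under 2000 bases had a median of -0.29 with Dox against DMSO, and longer members -0.09, where all genes had -0.07 and 0.01. Across the 42 members the log2 change and log2 length correlated at Pearson r = 0.400 and Spearman rho = 0.463, and across all genes at 0.083 and 0.105. These correlations are across genes measured in the same libraries and are descriptions.

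The same question could be asked without the Dox libraries, in cells that also had A-485. In the A-485 and Dox group 22 members fell and 1 rose relative to A-485 alone, where 36.1% of all genes fell and 29.9% rose, and library totals gave the same counts, where 36.2% and 29.7% of all genes were called. The median was -0.11, and -0.02 over all genes, and no member passed 1.5-fold, which 3.17% and 3.02% of all genes did. In 24 of 42 members (57.1%) the 3 libraries with both compounds lay below the 3 with A-485, as they did for 36.7% of all genes, and in 1 member (2.38%, against 30.4%) they lay above. Dox replicate 1 enters these values only through the spread of the shared fit. With all 12 libraries no member was called by edgeR, against 3.66% and 3.74% of all genes, and 1 had an unadjusted p under 0.05. Limma-voom with sample weights on all 12 called 22 lower and 1 higher. Its weight for Dox replicate 1 was 0.00376, against 1.04 to 3.03 for the other libraries, so that fit hardly used it. DESeq2 on 11 libraries also called 22 and 1. Of the members that fell, 20 also fell with Dox against DMSO, which is 20 of 22 here (90.9%) and 20 of 26 there (76.9%), and these comparisons share no library. Over all genes 2827 fell in both, 58% of the 4872 here and 62.9% of the 4496 there. No member rose in both, of 1 here and 5 there, against 2525 of all genes.

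By role, 9 of 11 distal and 6 of 9 proximal arm subunits fell with A-485 and Dox against A-485, with medians of -0.25 and -0.21. In the N module 3 of 8 fell and in the Q module 3 of 6, with medians of -0.05 in both. Of the 28 accessory subunits 18 fell, and of the 6 catalytic core subunits 3 fell and 1 rose. Over all genes 36.1% fell and 29.9% rose. With all 12 libraries edgeR called no member of any role group. Of the assembly factors 1 of 8 fell, NDUFAF8, the partner of NDUFAF5. NDUFC2 had 10.3, 9.22 and 11.1 CPM with A-485 and Dox, against 14.1, 15.2 and 14.4 CPM with A-485, a change of -0.51 ± 0.05 (edgeR adjusted p = 2.85e-12). NDUFS5 had 49.6, 50.4 and 52.2 CPM with A-485 and Dox, against 66.9, 67.9 and 67.9 CPM with A-485 (-0.41 ± 0.03, edgeR adjusted p = 2.97e-20), and NDUFA2 had 13.5, 13.9 and 13.7 CPM, against 17.5, 18.5 and 19.0 CPM (-0.42 ± 0.04, edgeR adjusted p = 1.92e-12). The groups did not overlap for these 3 genes. NDUFV1 was the member that rose, with 93.1, 94.5 and 91.9 CPM with A-485 and Dox, against 88.4, 86.2 and 92.2 CPM with A-485 (0.07 ± 0.02, edgeR adjusted p = 0.00787), and its libraries overlapped. NDUFS1 had 196, 200 and 199 CPM with A-485 and Dox, against 210, 209 and 205 CPM with A-485, and fell by 0.07 ± 0.02 on the log2 scale (edgeR adjusted p = 0.00048). NDUFAF1 had 10.3, 11.4 and 11.1 CPM with A-485 and Dox, against 9.84, 11.3 and 11.3 CPM with A-485, and was not called (0.01 ± 0.06, edgeR adjusted p = 0.842).

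**Figure D3:**
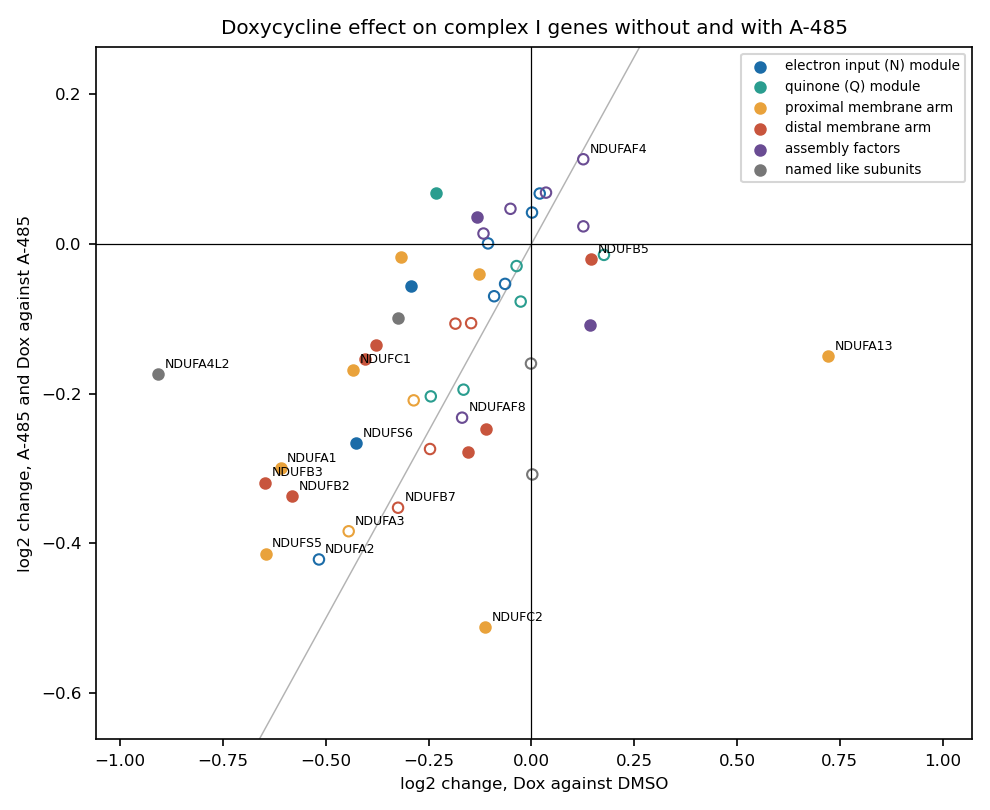
The x axis is the log2 change with Dox against DMSO (11 libraries) and the y axis that with A-485 and Dox against A-485, 1 point per gene, coloured by role and filled where the interaction was called. Most points lie to the lower left of the zero lines, NDUFS5, NDUFB3 and NDUFA1 at the far left among subunits, and many lie above the grey line of equal change.

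With A-485 against DMSO members were called in both directions, as all genes were. With A-485 against DMSO 22 members fell and 16 rose, where 43.7% of all genes fell and 46.6% rose, and the median was -0.11, against 0.04 over all genes. This split depends on scaling: with library totals in place of TMM the median of all genes was 0.39, and 10 members fell and 29 rose, against 28.7% and 63.6% of all genes. With all 12 libraries in the fit 2 members fell, NDUFA10 and NDUFAF6, and 2 rose, NDUFA5 and NDUFA13, against 27.1% and 26.3% of all genes, although none of the 6 libraries compared is Dox replicate 1. A fit of those 6 libraries alone called 22 lower and 13 higher. The 3 A-485 libraries lay below the 3 DMSO libraries in 19 members and above them in 15, against 43.6% and 46.3% of all genes. Past 1.5-fold, 7 members fell (24.4% of all genes) and 2 rose (21.8% of all genes).

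All 16 members that rose with A-485 against DMSO under TMM scaling also rose with library totals. Over all genes 46.6% rose and 43.7% fell under TMM scaling, and 63.6% rose and 28.7% fell with library totals. The members that fell under both scalings were NDUFAF2, NDUFAF4, NDUFAF6, NDUFAF8, NDUFV1, NDUFS6, NDUFS8, NDUFS5, NDUFA10 and NDUFB10, 10 in all. A further 9 that fell with TMM scaling rose with library totals, so no direction is given for them here: NDUFA6, NDUFA9, NDUFAF5, NDUFB6, NDUFB7, NDUFB9, NDUFB11, NDUFS4 and NDUFV3.

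Of the 5 role groups assembly factors had the lowest median, -0.47, with 6 of 8 lower, 4 of them under both scalings, and NDUFAF1 higher. Over all genes 43.7% fell and 46.6% rose. Library totals gave 4 lower and 3 higher, with a median of -0.12, against 28.7% and 63.6% of all genes. With all 12 libraries 1 assembly factor fell, NDUFAF6, and none rose. NDUFAF4 (ENSG00000123545, chromosome 6, 96889313 to 96897881, minus strand) had 9.07, 9.54 and 8.75 CPM with A-485, against 17.0, 15.9 and 15.1 CPM in DMSO, with no overlap. Its change was -0.81 ± 0.05 (edgeR adjusted p = 2.97e-20), -0.46 with library totals (edgeR adjusted p = 1.72e-11) and -0.81 ± 0.34 with all 12 libraries (edgeR adjusted p = 0.0704). NDUFAF8 had 24.0, 24.8 and 23.7 CPM with A-485, against 42.3, 40.0 and 41.7 CPM in DMSO (-0.77 ± 0.04, edgeR adjusted p = 8.19e-27, and -0.42 with library totals). NDUFAF6 and NDUFAF2 fell by 0.65 and 0.64 on the log2 scale, and by 0.30 and 0.29 with library totals. NDUFAF1, which acts with ECSIT and ACAD9 on the membrane arm, had 9.84, 11.3 and 11.3 CPM with A-485, against 7.99, 9.29 and 8.83 CPM in DMSO, a rise of 0.32 ± 0.06 (edgeR adjusted p = 1.44e-05).

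In the N module 6 of 8 fell and 1 rose, with a median of -0.25, and of the 6 NDUFV1 and NDUFS6 fell under both scalings. Over all genes 43.7% fell and 46.6% rose. Library totals gave 2 lower and 5 higher, with a median of 0.10, against 28.7% and 63.6% of all genes. With all 12 libraries none of the 8 was called. NDUFV1 had 88.4, 86.2 and 92.2 CPM with A-485, against 146, 144 and 147 CPM in DMSO, with no overlap. It fell by 0.71 ± 0.02 on the log2 scale (edgeR adjusted p = 2.28e-34), by 0.36 with library totals, and the same change had an adjusted p of 0.143 in edgeR with all 12 libraries. NDUFS6, a zinc-binding subunit added late with this module, had 33.4, 35.9 and 37.2 CPM with A-485, against 59.1, 56.2 and 60.4 CPM in DMSO, a change of -0.72. NDUFS1 had 210, 209 and 205 CPM with A-485, against 207, 210 and 208 CPM in DMSO, and was not called with TMM scaling (-0.00 ± 0.02, edgeR adjusted p = 0.905). With library totals it was higher, at 0.35 (edgeR adjusted p = 1.63e-24). NDUFA2 rose by 0.29.

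In the Q module 4 of 6 rose and 2 fell, against 46.6% and 43.7% of all genes. With library totals 5 rose and 1 fell, against 63.6% and 28.7%. With all 12 libraries 1 rose and none fell. NDUFS8, which carries iron-sulfur clusters, had 44.0, 45.0 and 47.2 CPM with A-485, against 61.8, 60.7 and 59.3 CPM in DMSO (-0.42 ± 0.03, edgeR adjusted p = 2.49e-19). With library totals the change was -0.07 (edgeR adjusted p = 0.025). NDUFA5, an accessory subunit, rose by 0.27 and was also called in the 12-library fit. NDUFS3 and NDUFS7 rose by 0.07 and 0.22.

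In the membrane arm, 4 of 9 proximal subunits rose and 3 fell, and 6 of 11 distal subunits rose and 5 fell, with medians of 0.06 and 0.17. Over all genes 46.6% rose and 43.7% fell. Library totals gave 6 higher and 2 lower in the proximal and 10 higher and 1 lower in the distal part. The medians were then 0.41 and 0.52, and 63.6% of all genes rose and 28.7% fell. With all 12 libraries 1 proximal subunit rose and 1 fell, and no distal subunit was called. NDUFA10 of the proximal arm had 99.7, 99.7 and 103 CPM with A-485, against 148, 147 and 149 CPM in DMSO (-0.56 ± 0.02, edgeR adjusted p = 1.15e-29, and 0.00864 with all 12 libraries). NDUFB10, a cysteine-rich distal subunit, had 39.3, 43.8 and 43.5 CPM with A-485, against 66.0, 66.1 and 65.2 CPM in DMSO (-0.64 ± 0.03, edgeR adjusted p = 4.32e-26). Both genes were separated without overlap. NDUFC2 had 14.1, 15.2 and 14.4 CPM with A-485, against 10.3, 10.0 and 10.8 CPM in DMSO (0.49 ± 0.06, edgeR adjusted p = 2.23e-11), and NDUFC1 had 65.8, 66.8 and 71.0 CPM, against 50.3, 49.6 and 50.1 CPM (0.44 ± 0.03, edgeR adjusted p = 1.1e-20). NDUFA13 had 179, 187 and 210 counts with A-485, against 41, 33 and 42 counts in DMSO, a change of 1.91, and NDUFB8 had 5.12, 5.24 and 5.21 CPM, against 3.59, 2.77 and 3.33 CPM, a change of 0.68. The coding exons of NDUFC2, NDUFA13 and NDUFB8 are mostly shared with another gene. NDUFA1, NDUFA8 and NDUFAF7 were not called, at 0.06, -0.03 and 0.06.

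**Figure D4:**
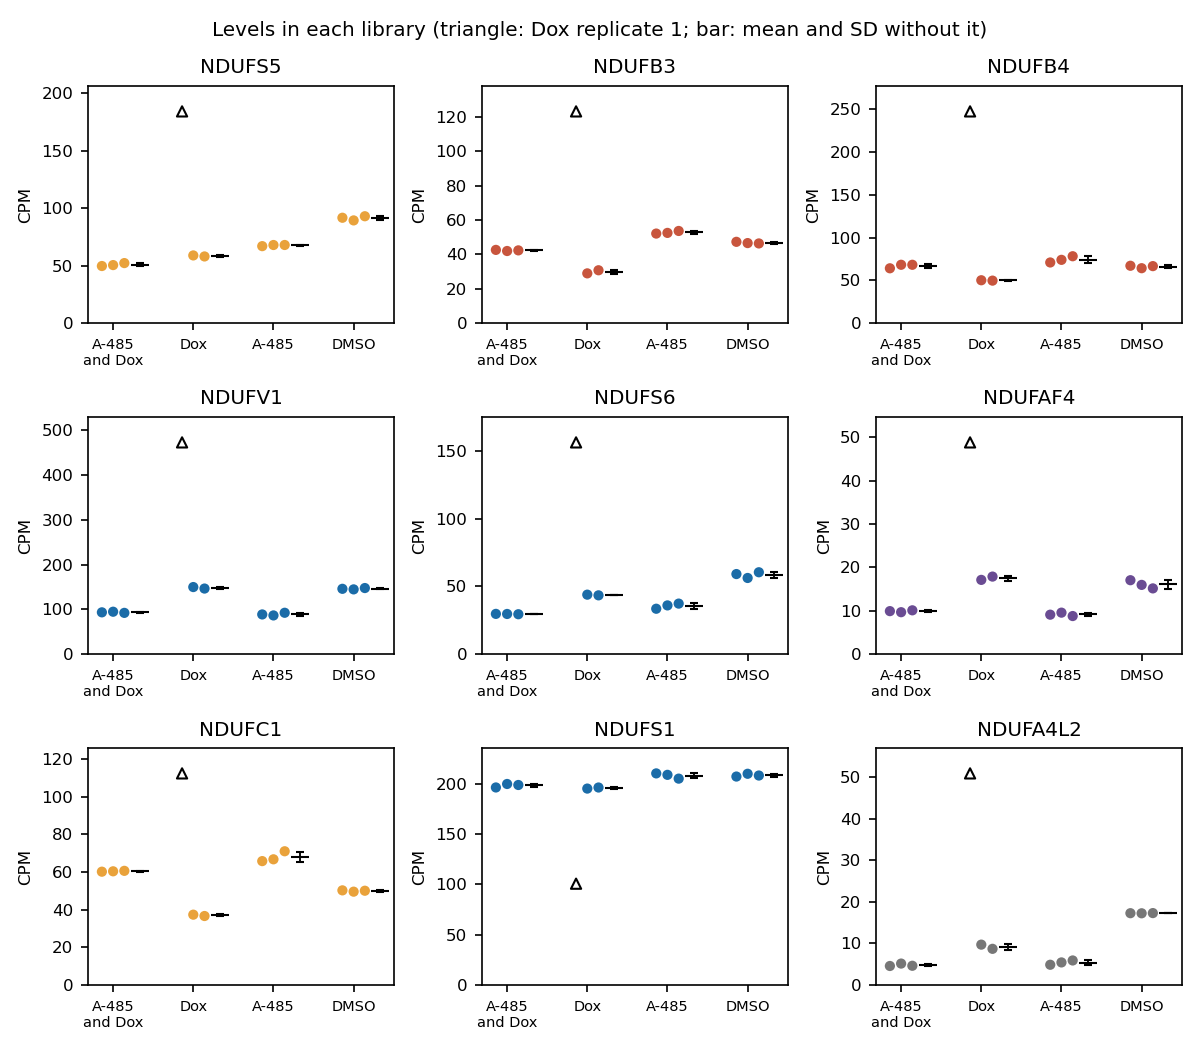
CPM of 9 genes in each of the 12 libraries, by group (points, with an open triangle for Dox replicate 1; bars give mean and SD without it). NDUFV1, NDUFS6 and NDUFAF4 are lower in both groups with A-485, NDUFS5 and NDUFB3 are lower in Dox replicates 2 and 3 than in DMSO, and Dox replicate 1 is the highest library for 8 of the 9 genes and the lowest for NDUFS1.

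On top of doxycycline, members were again called in both directions with A-485. With A-485 and Dox against Dox (replicates 2 and 3) 16 members fell and 15 rose, where 43.6% of all genes fell and 44.2% rose. With library totals 9 fell and 31 rose, against 31.1% and 59.3% of all genes. With all 12 libraries 14 fell and 2 rose, against 32.9% and 27.1% of all genes, and the median was -0.74, against 0.03 with 11. Past 1.5-fold 6 members fell (24% of all genes) and 3 rose (19.9%). Libraries with both compounds lay below Dox replicates 2 and 3 in 18 members and above them in 17, against 44.9% and 46% of all genes, and with Dox replicate 1 counted they lay below in 18 and above in 5, against 33.7% and 34%. These comparisons of A-485 without and with doxycycline share no library: 16 members fell in both, 72.7% of the 22 without doxycycline and 100% of the 16 with it, and 12 rose in both, 75% of 16 and 80% of 15. Over all genes these shares were 89.9% and 89.9% for falls and 86.6% and 91.3% for rises. Under both scalings 9 members fell in both, which are NDUFAF2, NDUFAF4, NDUFAF6, NDUFAF8, NDUFA10, NDUFB10, NDUFS6, NDUFS8 and NDUFV1. All 12 that rose in both did so under both scalings. The log2 changes correlated across the 42 members at r = 0.896 and rho = 0.894, and across all genes at 0.959 and 0.943, given as a description. Over all 12 libraries the members' values were r = 0.739 and rho = 0.745.

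NDUFAF6 had 7.94, 8.06 and 7.91 CPM with A-485 and Dox, against 19.4, 14.1 and 15.7 CPM in Dox replicates 1 to 3, a change of -0.90 ± 0.06 (edgeR adjusted p = 1.2e-19) and -1.04 ± 0.11 with all 12 libraries (edgeR adjusted p = 2.26e-05). NDUFAF8 had 21.4, 20.2 and 20.1 CPM, against 103, 38.1 and 35.4 CPM (-0.84 ± 0.04, edgeR adjusted p = 1.59e-25), and NDUFV1 93.1, 94.5 and 91.9 CPM, against 473, 150 and 146 CPM (-0.67 ± 0.02, edgeR adjusted p = 3.97e-31). For these 3 all libraries with both compounds lay below all Dox libraries. NDUFC1 had 60.2, 60.4 and 60.6 CPM with A-485 and Dox, against 112, 37.4 and 36.6 CPM in Dox, a rise of 0.71 ± 0.03 (edgeR adjusted p = 5.23e-26) that was -0.04 with all 12 libraries (edgeR adjusted p = 0.931). NDUFB2 and NDUFB3 rose by 0.53 ± 0.06 and 0.50 ± 0.04 (edgeR adjusted p = 1.83e-12 and 9.56e-19), and were at -0.12 and -0.53 with all 12 libraries. NDUFAF1 rose by 0.45 ± 0.07 (edgeR adjusted p = 2.2e-07), and was at 0.04 with all 12 libraries (edgeR adjusted p = 0.895), and NDUFS1 was not called, at 0.02 ± 0.02 (edgeR adjusted p = 0.378).

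**Figure D5:**
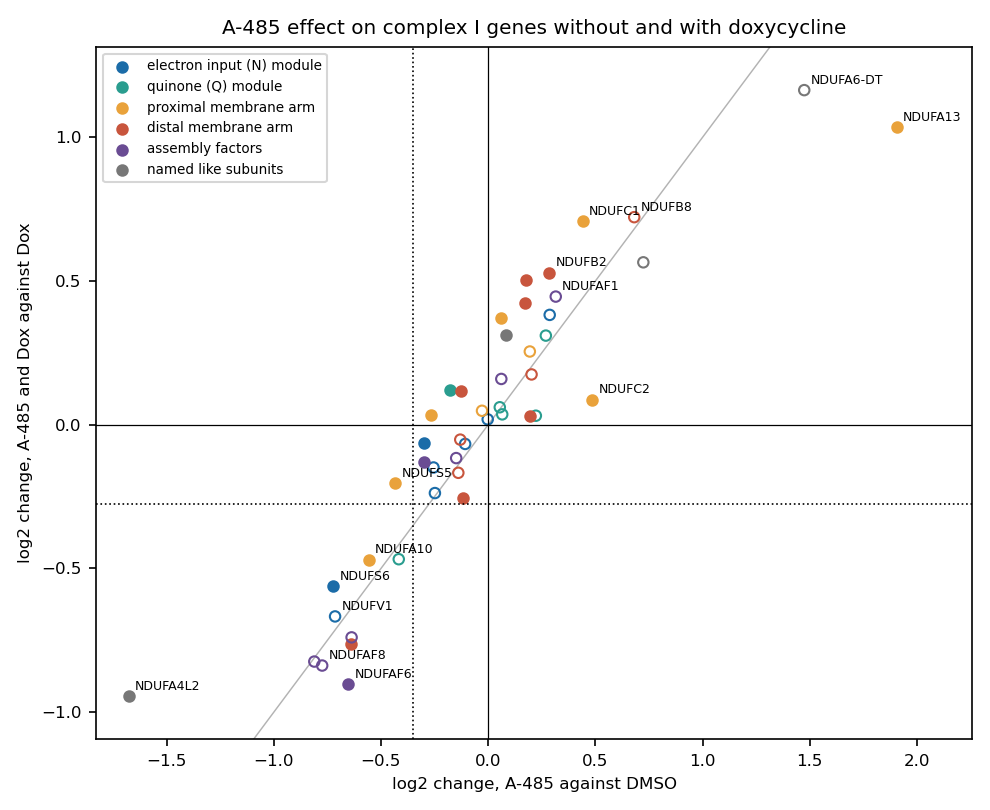
The x axis is the log2 change with A-485 against DMSO and the y axis that with A-485 and Dox against Dox (11 libraries), 1 point per gene, coloured by role and filled where the interaction was called. Dotted lines mark where 0 lies with library totals in place of TMM scaling: NDUFAF6, NDUFAF8, NDUFV1 and NDUFS6 lie below and to the left of the dotted lines.

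The interaction, the doxycycline effect with A-485 minus that without it, was called in 13 members above 0 and in 6 below, where 21.8% and 26.6% of all genes were called. With library totals 8 were above 0 and 10 below, against 14.4% and 38.7% of all genes, and with all 12 libraries 0 and 1, against 1.25% and 1.32%. Past 1.5-fold, 1 member was below 0 and none above with 11 libraries (3.36% and 3.35% of all genes). In that 12-library fit of edgeR 3 members below 0 and none above had an unadjusted p under 0.05, and the one called was NDUFA13. The same 11-library interaction gave 12 above and 3 below in DESeq2.

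NDUFB3 had log2 changes of -0.32 for doxycycline on top of A-485 and -0.65 for Dox against DMSO, an interaction of 0.33 ± 0.05 (edgeR adjusted p = 2.75e-08). NDUFA1 had -0.30 and -0.61, an interaction of 0.31. NDUFS5 had -0.41 and -0.65, an interaction of 0.23, and NDUFA2 had -0.42 and -0.52, an interaction of 0.10 that was not called. In the other direction NDUFC2 had -0.51 and -0.11 (interaction -0.40 ± 0.09, edgeR adjusted p = 0.000155), and NDUFA13 had -0.15 and 0.72 (-0.87 ± 0.21, edgeR adjusted p = 0.000517), on counts that may be partial. The interaction was not called for NDUFV1 (0.05 ± 0.03, edgeR adjusted p = 0.242), NDUFS1 (0.02 ± 0.03, edgeR adjusted p = 0.55) or NDUFAF1 (0.13 ± 0.10, edgeR adjusted p = 0.279). Across the 42 members the 2 doxycycline changes correlated at r = 0.567 and rho = 0.666 with the same sign in 33 of 42, and across all genes at 0.600 and 0.523 with the same sign in 9449 of 13511, given as a description. Over all 12 libraries the members' values were r = 0.181, rho = 0.227 and the same sign in 13 of 42.

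Of the rows that only carry a complex I name, NDUFA4L2 (ENSG00000185633, chromosome 12, 57234903 to 57240715, minus strand), a paralog of NDUFA4 known as a hypoxia-induced gene, had 4.58, 5.16 and 4.64 CPM with A-485 and Dox, 51.0, 9.72 and 8.72 CPM in Dox replicates 1 to 3, 4.88, 5.44 and 5.91 CPM with A-485, and 17.3 CPM in each DMSO library. It fell by 1.68 ± 0.06 on the log2 scale with A-485 against DMSO (edgeR adjusted p = 1.76e-31), by 1.33 with library totals, and the 12-library fit called it too (edgeR adjusted p = 0.0329). With Dox against DMSO it was at -0.91 ± 0.06 (edgeR adjusted p = 3.61e-18), and at 0.41 ± 0.56 with Dox replicate 1 in the fit (edgeR adjusted p = 0.612). Its interaction was 0.73 ± 0.10 (edgeR adjusted p = 1.49e-08) with 11 libraries and -0.59 ± 0.80 with 12 (edgeR adjusted p = 0.686). With A-485 and Dox it fell by 0.94 ± 0.08 on the log2 scale relative to Dox replicates 2 and 3 (edgeR adjusted p = 3.11e-16), and was also called with all 12 libraries (edgeR adjusted p = 0.00799). Relative to A-485 alone it fell by 0.17 ± 0.08 (edgeR adjusted p = 0.0382), which was not called with all 12 libraries (edgeR adjusted p = 0.975).

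NDUFA4 had 84.7, 87.6 and 85.0 CPM with A-485 and Dox, 71.9 and 66.2 CPM in Dox replicates 2 and 3 and 321 CPM in replicate 1, 91.0, 92.9 and 91.4 CPM with A-485, and 88.6, 82.5 and 88.4 CPM in DMSO. Dox replicates 2 and 3 were the lowest libraries and Dox replicate 1 the highest. The change with Dox against DMSO was -0.33 ± 0.03 (edgeR adjusted p = 3.38e-13), and 0.82 ± 0.50 with 12 libraries (edgeR adjusted p = 0.272). With A-485 against DMSO it was 0.08 ± 0.03 (edgeR adjusted p = 0.00249). With both compounds NDUFA4 was higher by 0.31 ± 0.03 than in Dox (edgeR adjusted p = 1.69e-13), and at -0.84 with 12 libraries (edgeR adjusted p = 0.174). Relative to A-485 it was at -0.10 ± 0.03 (edgeR adjusted p = 0.000625), and its interaction was 0.23 ± 0.04 (edgeR adjusted p = 4.4e-06), and -0.92 with 12 libraries (edgeR adjusted p = 0.508). NDUFA6-DT and NDUFV2-AS1 rose by 1.47 and 0.72 with A-485 against DMSO, and were not called with Dox against DMSO, at 0.00 in both. NDUFA6-DT had 106, 96 and 122 counts with A-485, against 32, 33 and 23 counts in DMSO. Whether counting used strand was not stated, so reads of NDUFA6-DT and NDUFA6, whose exons overlap, may not be separated, nor those of NDUFV2-AS1 and ANKRD12.

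The rest of the pathway showed where the set stands. The mitochondrially encoded subunits of complex I, MT-ND1 to MT-ND6 and MT-ND4L, all fell with Dox against DMSO, 7 of 7, against 33.3% of all genes. The median was -1.76, with a range of -2.62 to -1.13. With all 12 libraries 4 of 7 fell (7.08% of all genes). With A-485 and Dox against A-485 all 7 fell (36.1% of all genes), with a median of -1.67, and 5 of 7 with all 12 libraries (3.66%). All 7 also fell with A-485 against DMSO (43.7% of all genes), with a median of -0.43. There library totals called 3 of 7 lower (28.7% of all genes), and all 12 libraries 1 (27.1%). Their summed level was 6729 to 6919 CPM with A-485 and Dox, 7716 and 8421 CPM in Dox replicates 2 and 3, 21417 to 22905 CPM with A-485, and 29203 to 30168 CPM in DMSO, with 20829 CPM in Dox replicate 1, while the 34 nuclear subunits summed to 1484 to 1503, 1570 and 1578, 1620 to 1683, and 1773 to 1813 CPM in the same groups, with 4000 CPM in Dox replicate 1. Poly(A) selection acts on mitochondrial transcripts with short tails, and its part in these levels was not tested.

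Nuclear genes of complexes II to V fell with Dox against DMSO in 41 of 43, against 33.3% of all genes, with a median of -0.25. With A-485 and Dox against A-485 34 of the 43 fell, against 36.1% of all genes, with a median of -0.15. These falls also depend on Dox replicate 1: in edgeR with all 12 libraries 1 fell and 1 rose with Dox against DMSO, with a median of 0.42. In the same fit none was called with A-485 and Dox against A-485, where 1 had an unadjusted p under 0.05. Limma-voom with sample weights, which hardly used Dox replicate 1, called 34 lower and 2 higher there. With A-485 against DMSO 30 fell and 7 rose with TMM scaling, and 10 fell and 29 rose with library totals. Another 13 complex I genes that the symbol rule does not reach, such as NDUFAB1, ACAD9 and ECSIT, had 9 lower and 1 higher with Dox, and 9 lower and 2 higher with A-485, against DMSO, where library totals gave 4 lower and 7 higher for A-485. Over all genes 33.3% fell and 32.8% rose with Dox, and 43.7% fell and 46.6% rose with A-485, in the 11-library fit with TMM scaling. In edgeR with all 12 libraries none of the 13 was called with Dox against DMSO, with a median of 0.16. There 1 was higher and 2 lower at an unadjusted p under 0.05, and 5 were called lower with A-485 against DMSO. Limma-voom with sample weights, which hardly used Dox replicate 1, called 9 lower and 1 higher with Dox. Whether complex I differed from these lists was not tested. Among 8 regulators of respiratory chain genes 5 fell and 2 rose with A-485 against DMSO (43.7% and 46.6% of all genes). Library totals gave 4 lower and 4 higher. With TMM scaling the coactivators PPARGC1A and PPRC1 and the receptor ESRRA fell by 3.15, 1.89 and 1.40 on the log2 scale with A-485 against DMSO. NRF1 was not called there, at 0.03, and GABPA rose by 0.70. With Dox against DMSO 5 of the 8 rose and 1 fell (32.8% and 33.3% of all genes), and the median of the 8 was 0.09. PPARGC1A and ESRRA rose by 0.91 and 0.59. With all 12 libraries ESRRA was called (0.66, edgeR adjusted p = 0.00034) and PPARGC1A was not (0.54, edgeR adjusted p = 0.268).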

How the data were processed

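Poly(A) RNA of 12 HepG2 libraries in 4 groups of 3 was measured on a BGISeq500. The values are raw counts per gene as the authors deposited them. Per the submitters' processing notes STAR 2.6.0a and HTSeq 0.10.0 were used with GRCh38. The strand setting and any removal of duplicates are not given in the sources used here. The deposited counts held only genes with at least 1 CPM in 2 or more libraries. The totals of 46600324 to 51773300 counts per library carry no molecular identifiers, so precision from depth covers counting error only.

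The members and lists were chosen with earlier results of these data known. In R 4.3.3, edgeR 4.0.16 (TMM, quasi-likelihood test, Benjamini-Hochberg adjustment) was fitted to all 13511 genes in 1 model of the 4 groups. Dox replicate 1 was left out of this fit and included in a second. Alternatives were library totals, DESeq2 1.42.0, limma 3.58.1 (voom, also with sample weights), filters, a replicate block and leaving out each library. The edgeR script was tested on simulated data. Same-numbered libraries correlated at -0.065 to 0.033 in their deviations from group means, so the numbers were not taken as pairs.

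Full statistics are given for the 3 largest rises and falls among called members with a mean log2 CPM of at least 3 in each comparison, the 2 highest and lowest interactions, the smallest p per role with A-485, and NDUFV1, NDUFS1, NDUFAF1, NDUFA4 and NDUFA4L2. Other genes are given by single values, and 1 member, though counted, is not reported here. Exonic lengths and overlaps come from GENCODE 29.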

Additional observations from a re-analysis of the deposited data

Results flagged for a closer look

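The difference between the doxycycline effect with A-485 and without it passed the test of the interaction term (edgeR, adjusted p under 0.05, 11 libraries) for 21 of the 46 genes. Of the 46, 15 were above 0 and 6 below, where 21.8% of all genes were called above 0 and 26.6% below. Above 0, in log2 units, were NDUFA4L2 at 0.73, NDUFB3 at 0.33, NDUFA1 at 0.31, NDUFA11 at 0.30, NDUFA9 at 0.30, NDUFC1 at 0.27, NDUFB4 at 0.25, NDUFB6 at 0.24, NDUFB2 at 0.24, NDUFA12 at 0.24, NDUFS5 at 0.23, NDUFA4 at 0.23, NDUFAF3 at 0.17, NDUFS6 at 0.16 and NDUFA10 at 0.088. Below 0 were NDUFA13 at -0.87, NDUFC2 at -0.40, NDUFAF6 at -0.25, NDUFB5 at -0.17, NDUFB9 at -0.14 and NDUFB10 at -0.12. Of these, NDUFA13 was also called with all 12 libraries. NDUFA9, NDUFA10, NDUFA11, NDUFAF3 and NDUFS6 were not called above 0 with library totals. Counts of NDUFA9, NDUFA11, NDUFA13, NDUFB2 and NDUFC2 may be partial, as over 30% of their coding exon length is shared.

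Reads that matched more than 1 gene, which enter no comparison, made up 12.3% of reads in Dox replicate 1, against 9.10 to 10.0% in the other 11 libraries.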

How the results depend on the processing

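Counts are members called higher and lower, of 42, in this order: doxycycline alone, A-485 alone, A-485 added to doxycycline, doxycycline added to A-485, and the interaction. With 11 libraries they were 5 and 26, 16 and 22, 15 and 16, 1 and 22, and 13 and 6. With all 12 they were 1 and 1, 2 and 2, 2 and 14, 0 and 0, and 0 and 1. With library totals on 11 they were 6 and 20, 29 and 10, 31 and 9, 1 and 22, and 8 and 10. Shares of all genes for these settings are given with the results above. With library totals on all 12, chosen after seeing the data, they were 2 and 0, 9 and 2, 5 and 9, 0 and 0, and 0 and 0. Of all 13511 genes that setting called 1154 higher and 621 lower with doxycycline alone, and 5502 and 2439 with A-485 alone. It called 5686 and 2793 with A-485 added to doxycycline, and 399 and 429 with doxycycline added to A-485. Shares of all genes for the settings that follow are not given here. The replicate block gave 4 and 27, 15 and 22, 15 and 17, 1 and 22, and 13 and 5 on 11 libraries, and 1 and 1, 2 and 2, 2 and 8, 0 and 0, and 0 and 0 on all 12. Limma-voom with sample weights on all 12 gave 5 and 26, 17 and 22, 15 and 16, 1 and 22, and 13 and 6. Its weight for Dox replicate 1 was 0.00376, against 1.04 to 3.03 for the other libraries, so it comes close to leaving that library out. DESeq2 called 2 higher with Dox against DMSO and 3 lower in the interaction, and DESeq2 size factors in edgeR called 3 higher with Dox against DMSO. Among the 33 members with at least 10 CPM in every group, 3 were higher with Dox against DMSO, 2 higher with doxycycline added to A-485 and 3 lower in the interaction. Fitting only the groups compared called 2 higher with doxycycline added to A-485.

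Leaving out 1 library at a time gave 2 to 5 and 26 to 27, 13 to 17 and 21 to 23, 14 to 15 and 14 to 17, 0 to 2 and 21 to 23, and 11 to 17 and 3 to 6. The 5 higher with Dox against DMSO became 3 without DMSO replicate 2 or Dox replicate 2, and 2 without DMSO replicate 3 or Dox replicate 3. The 1 higher with doxycycline added to A-485 became 2 without any one of DMSO replicates 1 to 3 or Dox replicates 2 and 3, and 0 without A-485 and Dox replicate 2. The 6 lower in the interaction became 3 without DMSO replicate 1, DMSO replicate 3 or Dox replicate 3. Without Dox replicate 2 or 3 the lone Dox library is assumed to vary like the other groups.

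Single log2 changes that reversed are given for all 12 libraries, then the replicate block on 12, then library totals on 12. With Dox against DMSO these were NDUFA4 at 0.82, 0.60 and 0.60, NDUFA4L2 at 0.41, 0.16 and 0.17, NDUFB3 at 0.38, 0.19 and 0.17, and NDUFS5 at 0.14 and 0.014 in the first 2. With A-485 added to doxycycline they were NDUFA4 at -0.84, -0.61 and -0.26, NDUFB3 at -0.53 and -0.33 and NDUFB2 at -0.12 and -0.029 in the first 2, and NDUFC1 at -0.039 with all 12. In the interaction they were NDUFA4 at -0.92, -0.70 and -0.70, NDUFA4L2 at -0.59, -0.35 and -0.35, and NDUFB3 at -0.70, -0.51 and -0.49. NDUFS1 with A-485 against DMSO was 0.35 with library totals and 0.038 with the 10 CPM filter. The cause was not tested. Depth limits NDUFA13, with 33 to 42 counts in DMSO.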
